A study of Mus musculus with 2 samples.

Results

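CD8 T cells of the brain were taken from 2 single-cell libraries of CD11b-selected brain cells, 1 labelled WT and 1 labelled KO. A barcode was a member when it held at least 1000 UMIs (unique molecular identifiers, each standing for 1 captured RNA molecule) with at most 10% of them mitochondrial, at least 3 UMIs of Cd3e, Cd3d, Cd3g, Trac and Trbc2 together, and at least 1 UMI of Cd8a or Cd8b1. Barcodes with 0.2% or more of their UMIs from the microglial genes Tmem119, P2ry12, Siglech, Gpr34 and Sall1, or 0.1% or more from the endothelial genes Cldn5 and Flt1, were left out. The rule found 219 cells among 37387 barcodes, with 109 of 18228 labelled WT and 110 of 19159 labelled KO. The members were thus chosen by their counts of these genes, whose own values are given only as a description. The same rule without a CD8 UMI gave 140 other T cells, 45 and 95, which served for comparison.

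CD8 T cells recognise peptides on MHC class I molecules and can kill the cells that display them, by releasing perforin and granzymes. Naive and recirculating CD8 T cells carry the homing receptor Ccr7, and the exit receptor S1pr1 under the control of the factor Klf2, and tissue-resident ones shut this programme down and keep Cd69, Cxcr6 and Itga1. In aged mouse brain CD8 T cells are known to gather in the parenchyma and along the ventricles, and they respond to type I interferon through factors that include Stat2 and Irf9.

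Both libraries came from C57BL/6J mice aged 18 months that had been given no treatment. The library labelled WT is of wild-type mice and the library labelled KO of CD200R1-/- mice, which lack an inhibitory receptor best known from myeloid cells; the labels name no promoter or cell type that would limit the loss. The animals were perfused, the brain was dissociated with an enzyme kit, and cells were drawn with magnetic particles against CD11b, a myeloid integrin, so the T cells are those that came along with that selection. The number of mice behind a library is not given in the sources used here, and the labels name no disease model, although the study's title names Parkinson's disease. With 1 library per genotype no difference between genotypes has a replicate check. Intervals are 95%, exact, and cover counting error only. In summed counts, fewer cells of a kind and less RNA per cell cannot be told apart.

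The libraries held 127429919 and 131196245 UMIs, and 13238 and 14369 barcodes passed the limits on UMIs and mitochondrial share. The CD8 T cells had 790992 UMIs labelled WT and 668425 labelled KO. Their median was 6780 UMIs and 2229 genes per cell against 4864.5 UMIs and 1883 genes, with 2.95% and 2.64% mitochondrial UMIs. The libraries had 103 barcode sequences in common, of which 0 and 2 belonged to CD8 T cells, and no barcode was a CD8 T cell in both.

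The labels fit the marker genes named here. The rule genes, given as a description only, were well above the minimum in most cells, with a median of 20 and 16 UMIs of the T cell receptor genes and at least 6 and 5 in every cell. Cd8a and Cd8b1, the chains of the CD8 co-receptor, were both detected in 78 and 81 cells, Cd8b1 alone in 22 and 21 and Cd8a alone in 9 and 8. They lie close together on chromosome 6 of GRCm38 (Cd8b1 at 71322788 to 71337494 and Cd8a at 71373427 to 71379173, both on the plus strand). Cd4 had 0 and 1 UMIs, Trdc of the gamma-delta receptor 0 and 0, the natural killer receptor Ncr1 0 and 1, and Foxp3 of regulatory T cells 0 and 2. Their lists were not empty, with 300 and 410 UMIs over 13 helper and regulatory genes and 99 and 109 over 8 natural killer genes. The gamma-delta list had 124 and 163 UMIs, of which the constant segment Tcrg-C2 gave 48 and 79. Just inside the rule lay 8 and 15 cells with a single CD8 UMI, and just outside lay 0 and 3 barcodes with 2 T cell receptor UMIs. The share limits removed 22 and 36 of the 131 and 146 barcodes that met both UMI minima. The highest microglial shares kept were 0.191% and 0.187% and the lowest removed 0.202% and 0.209%, and for the endothelial genes 0.0563% and 0.0975% against 0.174% and 0.124%.

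Some members carried RNA of a second cell type. A marker list of another cell type made up at least 0.5% of the UMIs, or the microglial list at least 2%, in 9 CD8 T cells labelled WT and 20 labelled KO, limits that were chosen after the data were seen. They are called mixed barcodes below. The 2 largest, of 62152 and 48567 UMIs in the library labelled KO, were led by astrocyte and ciliated-cell markers and held 16.6% of that library's CD8 UMIs, against 4.89% in the 2 largest of the library labelled WT. The largest mixed barcode labelled WT, of 17572 UMIs, carried dendritic cell markers at 1.35% of its UMIs. Counts over lists, and named genes whose call changes, are therefore given with and without these 29 barcodes, and without them 710183 and 459601 UMIs remained. By the same limits 2 and 14 of the other T cells were mixed.

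CD8 T cells made up a like share of both libraries, while T cells without a CD8 UMI were more frequent in the library labelled KO. CD8 T cells were 0.823% (0.677 to 0.992) and 0.766% (0.630 to 0.922) of kept barcodes, a ratio of 0.930 (0.707 to 1.22) whose interval includes equal shares. The other T cells were 0.340% (0.248 to 0.455) and 0.661% (0.535 to 0.808), a ratio of 1.94 (1.35 to 2.84). These shares count the mixed barcodes, which were 9 and 20 of the CD8 T cells and 2 and 14 of the other T cells. Among T cells, 70.8% (62.9 to 77.8) and 53.7% (46.6 to 60.6) had a CD8 UMI. A shallow cell can miss its CD8 UMIs, and T cells labelled KO were shallower. With every T cell thinned to 1000 UMIs the expected shares were 42.2% and 32.8%, an odds ratio of 0.667 in place of 0.479 unthinned. All shares were measured after CD11b selection, whose loss of T cells is unknown.

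**Figure D1:**
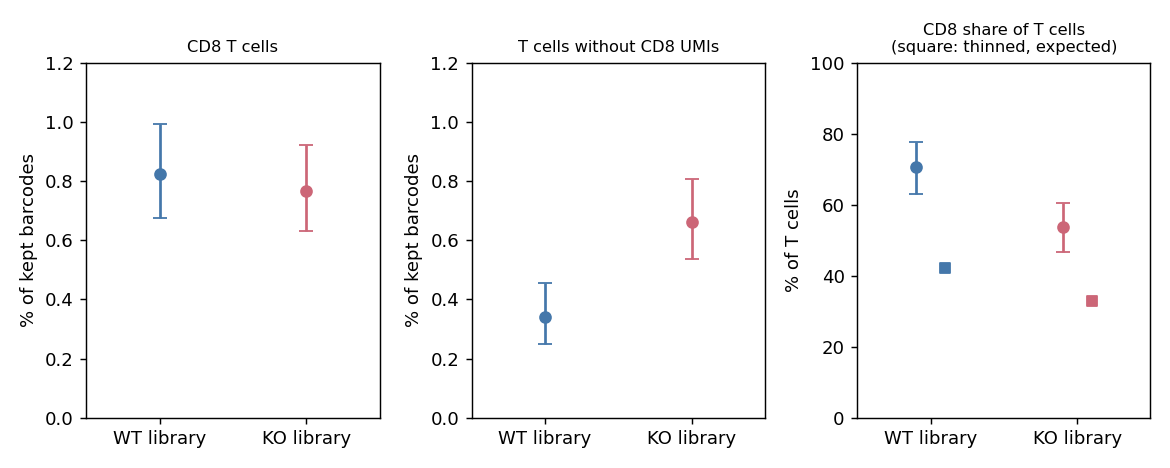
Share of kept barcodes that were CD8 T cells (left) or T cells without CD8 UMIs (middle), and share of T cells with a CD8 UMI (right), all in percent, for the libraries labelled WT and KO; points are shares, bars 95% exact binomial intervals and squares the shares expected after thinning to 1000 UMIs. The CD8 intervals overlap on the left (0.823% and 0.766%) and the 2 intervals in the middle panel do not (0.340% and 0.661%).

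Cd200r1, the targeted gene (ENSMUSG00000022667, GRCm38 chromosome 16, 44765736 to 44794978, plus strand), was detected at a low level in CD8 T cells of both libraries and was higher in the library labelled KO. It had 16 UMIs in 9 cells labelled WT, or 20.2 CPM (UMIs of the gene in 1000000 UMIs of these cells; interval 11.6 to 32.8). In the library labelled KO it had 32 UMIs in 21 cells, or 47.9 CPM (32.7 to 67.6), a ratio of 2.37 (1.26 to 4.62), and 3.09 (1.53 to 6.55) without the mixed barcodes. Other T cells had 66.3 and 72.2 CPM and barcodes rich in microglial markers 24.9 and 21.8 CPM. Which exons were deleted is not given in the sources used here. Reads of the 3′ end may lie beyond the deletion and then check nothing, so each direction rests on the labels. Of its relatives in CD8 T cells, the ligand Cd200 had 10 and 8 UMIs and Cd200r4 had 7 and 13, and Cd200r2 and Cd200r3 had 0 in both.

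In CD8 T cells labelled KO, the genes that mark naive and recirculating cells stood lower than in those labelled WT, and the type I interferon response stood higher. Comparisons between the libraries use log2 of the ratio of CPM, KO over WT, with 10 CPM added to each, a scale that understates the change of low genes. A gene counts as changed in level between the libraries when this ratio, or its inverse, is at least 1.5, and is tested only with 30 or more UMIs over both libraries. Over all 6388 such genes 999 stood higher (15.6%) and 246 stood lower (3.85%), with a median ratio of 0.08 over all. Without the mixed barcodes 376 of 5148 stood higher (7.3%) and 221 lower (4.29%), with a median of 0.06. Of genes past 1.5-fold, 80.2% were higher in all members and 63.0% without mixed barcodes. With size factors in place of totals this share was 58.6% (edgeR TMM) and 50.5% (DESeq2), and the median of all genes was -0.07 and -0.12, a shift that every list median shares.

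Klf2, the factor that switches on S1pr1 (GRCm38 chromosome 8, 72319033 to 72321656, plus strand), had 220 UMIs labelled WT and 55 labelled KO, or 278 and 82.3 CPM, a ratio of 0.296 (0.216 to 0.399), and 0.323 (0.227 to 0.450) without the mixed barcodes. It had a UMI in 52.3% and 30.9% of CD8 T cells, and in 56.5% and 58.0% of microglia-marked barcodes, which also express it. Il7r, the interleukin 7 receptor of long-lived T cells, had 377 and 138 UMIs, or 477 and 206 CPM, a ratio of 0.433 (0.354 to 0.528), and 0.554 (0.449 to 0.681) without the mixed barcodes. Lef1, a factor of naive and stem-like T cells, had 164 and 61 UMIs, or 207 and 91.3 CPM, a ratio of 0.440 (0.323 to 0.594), and 0.508 (0.363 to 0.702) without the mixed barcodes. In each of these genes the library labelled KO was the lower one, and the intervals leave out 1. S1pr1 had 55 and 25 UMIs in 31 and 14 cells, and the homing chemokine receptor Ccr7 had 23 and 8 in 10 and 5 cells. The chromatin organiser Satb1 (163 and 56 UMIs) and the factor Klf3 (90 and 31) were lower as well. Tcf7 (65 and 44) and Bach2 (119 and 79), factors that hold T cells in an undifferentiated state, stayed within 1.5-fold at -0.28 and -0.32.

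In all, 7 of 9 tested genes of the naive list were lower and 0 higher, with a median of -1.10, and the other 2 of its 11 genes held under 30 UMIs. Without the mixed barcodes it was again 7 of 9, with a median of -0.92. TMM and DESeq2 factors gave medians of -1.27 and -1.33. The same list had 7 of 9 genes lower with a median of -0.86 in T cells without CD8 UMIs, and 0 lower with a median of 0.02 in microglia-marked barcodes. No share over all genes stands beside these 2 counts. The genes that were lower in the other T cells differed in part from those in CD8 T cells. There Klf2 had a ratio of 0.886 (0.661 to 1.19) and Il7r 492 and 479 CPM, within 1.5-fold, whereas Tcf7, at 213 and 48.1 CPM, and Bach2, at 220 and 134 CPM, were lower.

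In CD8 T cells the naive genes were unevenly spread over cells. In the library labelled WT the 27 cells above the upper quartile of 19.7 UMIs of the list per 10000 held 64.4% of the list's UMIs, and the highest cell had 82.5. In the library labelled KO 9 of 110 cells (8.18%) lay above that value, and the highest had 31.6. The medians per cell were 9.52 and 5.93, so both the upper range and the median were lower in the library labelled KO.

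Markers of red cells, a sign of residual blood, were lower in the library labelled KO too, at 31.6 and 4.49 CPM summed over the list, with 0 of 5 genes reaching 30 UMIs and Alas2 at 0. Red-cell markers ranged from 0% to 0.0286% of a cell's UMIs labelled WT and from 0% to 0.0418% labelled KO. B cell markers summed to 118 and 76.3 CPM, with Ms4a1, Ly6d and Iglc2 at 0 and 3 of 8 genes reaching 30 UMIs. Their part in the naive result was not tested.

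Type I interferon response genes formed the list with the highest median among lists with at least 5 tested genes, markers of other cell types apart. Isg15, a ubiquitin-like protein attached to others after interferon (GRCm38 chromosome 4, 156199424 to 156200818, minus strand), had 32 UMIs in 10 cells labelled WT and 80 UMIs in 43 cells labelled KO. This is 40.5 and 120 CPM, a ratio of 2.96 (1.94 to 4.61). Ifi27l2a, an interferon-induced protein of small size and high expression, had 418 UMIs in 78 cells and 774 in 99, or 528 and 1158 CPM, a ratio of 2.19 (1.94 to 2.47). Cells with these genes were more numerous in the library labelled KO, which was the shallower of the 2.

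The regulators Irf7, the factor that amplifies interferon production, and Zbp1, a sensor of Z-form nucleic acids, had 24.0 and 58.3 CPM and 35.4 and 79.3 CPM in the libraries labelled WT and KO. Herc6, the ligase that attaches Isg15 in mice, had 51.8 and 150 CPM, and Usp18, which removes Isg15 and restrains the receptor, had 11 and 33 UMIs. Ifit3, which binds viral RNA complexes, had 51.8 and 127 CPM. Ifitm3, a membrane restriction factor, stood at 1.54 on the log2 scale in all members and at 0.45 without the mixed barcodes, and Oasl2 at 1.66 and 0.68, so these 2 rested in part on barcodes with other cells' RNA. The lowest members were Parp9 (-0.54) and the nucleotide hydrolase Samhd1 (-0.30).

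Of the 42 tested genes 21 were higher and 0 lower, with a median of 0.59, and the other 3 of the list's 45 genes held under 30 UMIs. Without the mixed barcodes 19 of 37 were higher, with a median of 0.64, and TMM and DESeq2 factors gave 0.44 and 0.38. The difference was spread over cells. The list made up a median of 23.8 UMIs per 10000 in CD8 T cells labelled WT and 45.8 in those labelled KO, and 97 of 110 cells labelled KO (88.2%) lay above the WT median. The same list was higher in other cells of the library labelled KO too, with 24 of 42 genes and a median of 0.70 in T cells without CD8 UMIs and 32 of 42 and a median of 1.02 in microglia-marked barcodes. The genes counted were those tested in CD8 T cells, and no share over all genes stands beside the counts in the other cells.

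Microglial RNA was present at a like low level in CD8 T cells of both libraries. The 13 microglial markers summed to 8057 and 9133 CPM, or 9.55% and 10.6% of their level in microglia-marked barcodes, with none at 0 and none past 1.5-fold, and ranged from 0.198% to 5.92% and from 0.129% to 7.40% of a cell's UMIs. Microglial RNA at that level would give a median of 5.52% and 7.98% of the CPM of the interferon genes in CD8 T cells, and at most 20.0% and 27.7% for any one of them. The same values were medians of 4.86% and 5.99% and at most 17.7% and 31.2% without the mixed barcodes. The measure is rough, as it gave 148% and 181% for Cx3cr1. Its level is partly set by the rule, which caps microglial genes, while microglia-marked barcodes held at least 0.5% of the same genes. The part of microglial RNA in the interferon difference was not tested. Isg15 had a UMI in 9.17% and 39.1% of CD8 T cells and in 9.89% and 33.4% of microglia-marked barcodes, which also express it. With cells thinned to 1000 UMIs these shares were expected at 3.18% and 12.1% against 1.22% and 5.87%.

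**Figure D2:**
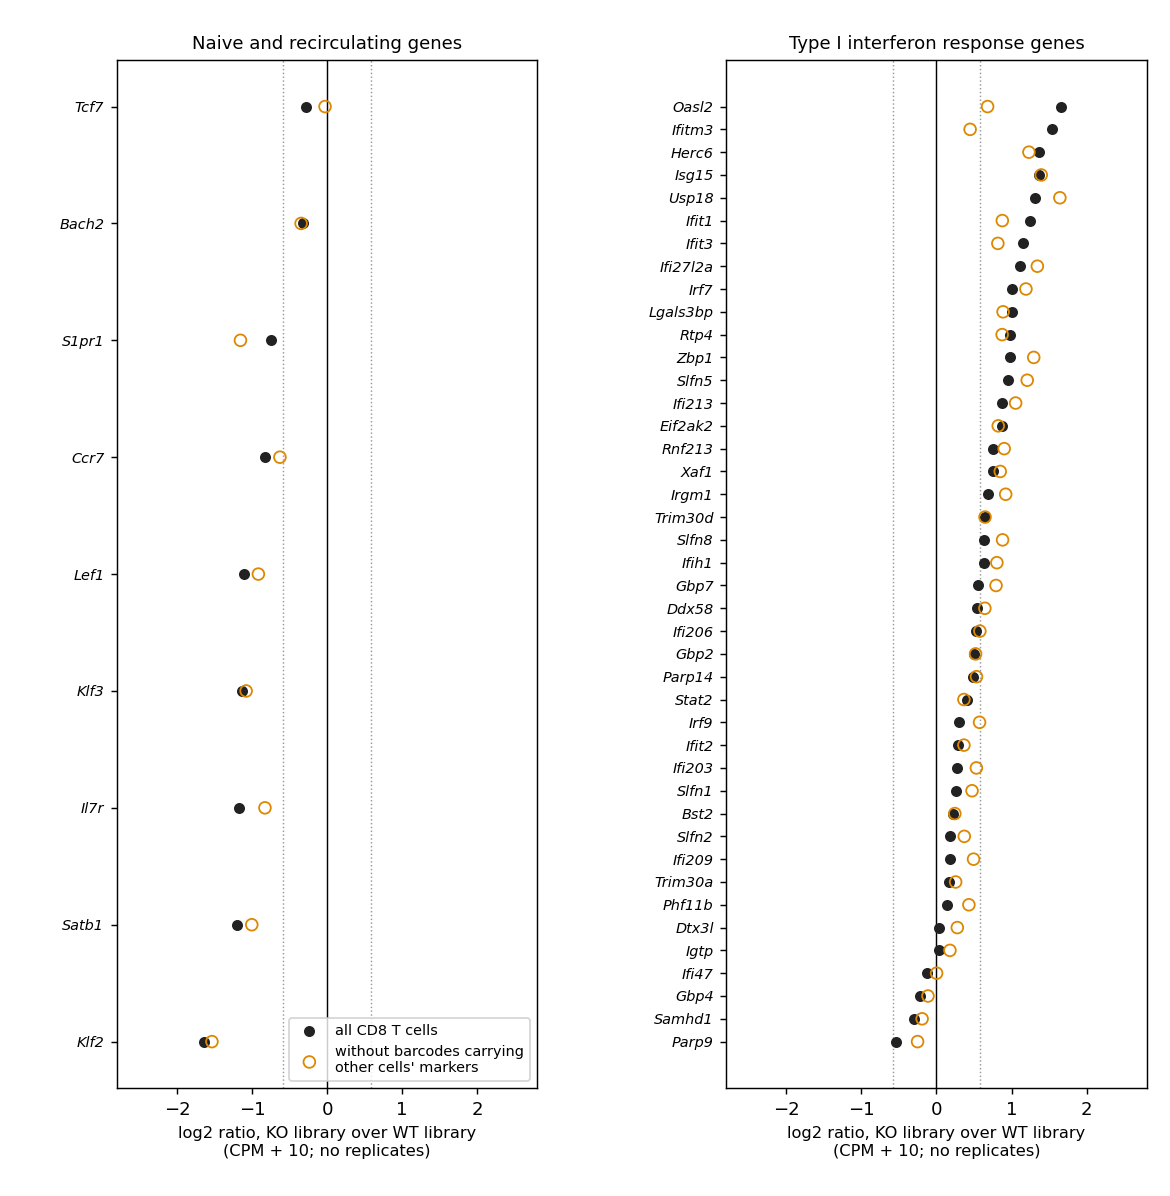
Log2 ratio of CPM (plus 10 CPM), library labelled KO over library labelled WT, for tested genes of the naive list (left) and the type I interferon list (right); filled points are all CD8 T cells, open points leave out mixed barcodes, and dotted lines mark 1.5-fold. Of the naive genes 7 of 9 lie left of the lower line and of the interferon genes 21 of 42 lie right of the upper line.

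**Figure D3:**
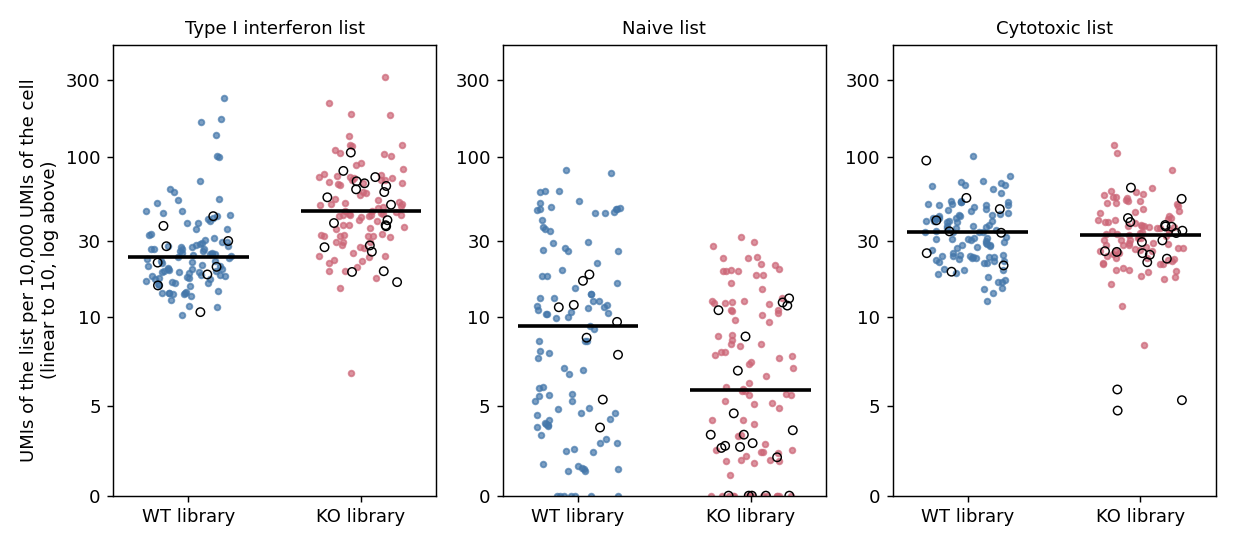
UMIs of 3 lists per 10000 UMIs in each CD8 T cell (linear axis to 10, logarithmic above), by library; each point is a cell, circles in black outline are mixed barcodes and lines are medians. The interferon median is 23.8 labelled WT and 45.8 labelled KO, the naive median 9.52 and 5.93, and the cytotoxic median 34.0 and 32.4.

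The promoters of 4 interferon genes are shown because the list moved together and interferon-activated factors are known to bind a repeated GAAA element. They are the 4 genes with a match and the highest ratios without mixed barcodes. The limit of 30 UMIs was applied to all members, and Slfn5 fell short of it without the mixed barcodes. The motif GAAANNGAAA, or TTTCNNTTTC on the other strand, overlaps allowed, was searched in the 250 bases before each start in RefSeq promoters (GRCm38.p6). Matches are in capitals below, 5′ to 3′ on the strand of the gene. Isg15 is at chr4:156200819-156201068 (minus strand, 3 matches), Slfn5 at chr11:82951852-82952101 (plus strand, 1 match), Ifi213 at chr1:173599273-173599522 (minus strand, 1 match) and Irgm1 at chr11:48871421-48871670 (minus strand, 2 matches).
Isg15: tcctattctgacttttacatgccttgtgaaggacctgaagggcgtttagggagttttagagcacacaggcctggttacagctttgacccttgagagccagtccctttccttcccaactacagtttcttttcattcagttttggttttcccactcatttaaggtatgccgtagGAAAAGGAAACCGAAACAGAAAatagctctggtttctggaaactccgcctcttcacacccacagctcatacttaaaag
Slfn5: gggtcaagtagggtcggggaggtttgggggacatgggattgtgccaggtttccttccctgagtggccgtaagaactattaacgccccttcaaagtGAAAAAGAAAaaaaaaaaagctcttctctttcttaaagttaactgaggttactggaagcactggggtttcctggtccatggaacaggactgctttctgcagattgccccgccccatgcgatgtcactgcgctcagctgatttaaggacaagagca
Ifi213: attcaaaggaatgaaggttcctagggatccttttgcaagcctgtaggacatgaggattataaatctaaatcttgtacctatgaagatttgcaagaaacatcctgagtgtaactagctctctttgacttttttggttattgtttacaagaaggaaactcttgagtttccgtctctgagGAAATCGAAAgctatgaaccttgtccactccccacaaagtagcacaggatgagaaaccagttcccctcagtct
Irgm1: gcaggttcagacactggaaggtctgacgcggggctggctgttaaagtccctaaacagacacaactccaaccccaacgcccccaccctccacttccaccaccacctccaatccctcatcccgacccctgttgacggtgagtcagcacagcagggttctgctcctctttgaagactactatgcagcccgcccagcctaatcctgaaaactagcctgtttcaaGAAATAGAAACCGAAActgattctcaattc
The last match begins 66 bases before the start in Isg15, 155 in Slfn5, 73 in Ifi213 and 24 in Irgm1. These genes stood at 1.36, 0.95, 0.88 and 0.69 between the libraries in all members. Slfn5, a Schlafen family gene, had 9 and 21 UMIs, Ifi213, of the family of interferon-induced nuclear proteins, 35 and 60, and Irgm1, a GTPase of cell-autonomous immunity, 27 and 41. The motif was in 978 of 32851 promoters (2.98%), in 186 of 5120 genes with 30 UMIs in CD8 T cells (3.63%) and in 20 of 38 genes of the interferon list with a promoter (52.6%). Within that list it was in 8 of 17 genes past 1.5-fold (47.1%) and 9 of 18 within it, a like share. It was in 0 of 9 naive genes and 4 of 13 cytotoxic genes. A match is a description of the letters and not of binding.

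Killing and residency genes, the core of the effector programme in tissue, mostly stayed within 1.5-fold between the libraries. Ccl5, a chemokine made by effector CD8 T cells and counted in the cytokine list, was in 107 of 109 and 108 of 110 cells. It had 5423 and 3588 UMIs or 6856 and 5368 CPM, a log2 ratio of -0.35, and -0.13 without the mixed barcodes. Nkg7, a protein of cytotoxic granules, had 958 and 645 UMIs, or 1211 and 965 CPM, at -0.32. Gzmk, the granzyme typical of T cells in aged tissue, was in 67 and 73 cells with 206 and 254 CPM. Gzmb was in 27 and 15 cells, and Prf1, the pore-forming perforin, in 40 and 22, at 74.6 and 47.9 CPM. With 10 CPM added, which understates the change of low genes such as Prf1, none of the 13 tested cytotoxic genes passed 1.5-fold. Their median was -0.02, and -0.19 and -0.25 under TMM and DESeq2 factors. When mixed barcodes were left out 2 of 13 were higher, the granzyme Gzma at 0.99 and the granzyme inhibitor Serpinb9 at 0.68, with a median again of -0.02. The last of the list's 14 genes, Gzmm, had 18 and 7 UMIs.

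Of 12 tested residency genes 1 was higher and 0 lower, with a median of 0.09. The early activation and retention receptor Cd69 had 174 and 142 UMIs, the chemokine receptor Cxcr6 181 and 162, and Itga1, the collagen-binding integrin chain, 96 and 98. Xcl1, a chemokine that draws cross-presenting dendritic cells, had 135 and 161 UMIs in 48 and 59 cells. The gene past 1.5-fold was P2rx7, an ATP-gated channel (15 and 48 UMIs), which stood at 1.5 on the log2 scale and at 0.59 without the mixed barcodes. The median was then 0.41 with 3 of 12 higher, Xcl1 (0.78) and Itga1 (0.68) among them, and it was -0.08 and -0.14 under TMM and DESeq2 factors, so its sign changed with the scaling.

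Among checkpoint and exhaustion genes, Tox, a factor that sustains chronically stimulated T cells, was higher in the library labelled KO. It had 419 UMIs in 80 cells labelled WT and 583 in 91 labelled KO, or 530 and 872 CPM, a ratio of 1.65 (1.45 to 1.87), and 0.89 on the log2 scale without mixed barcodes against 0.71 with them. Tox UMIs were in 0.474% and 0.431% of microglia-marked barcodes. The inhibitory receptor Havcr2 (23 and 35 UMIs) and the nuclear receptor Nr4a3 (30 and 44) were past 1.5-fold higher. Under TMM and DESeq2 factors these 3 genes fell short of 1.5-fold, with Tox at 0.53 and 0.47, Havcr2 at 0.53 and 0.48 and Nr4a3 at 0.52 and 0.46. Nr4a1, which responds to receptor signalling, was lower (34 and 9 UMIs, -1.18). Pdcd1, the PD-1 receptor, had 52 and 50 UMIs and Ctla4 84 and 89, at 0.16 and 0.30, with Ctla4 past 1.5-fold without the mixed barcodes (0.71). Of 14 tested genes 3 were higher and 1 lower, with a median of 0.20, and without the mixed barcodes 6 of 13 were higher and 1 lower, with a median of 0.48. Under DESeq2 factors the median was -0.01.

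Receptors shared with natural killer cells were partly lower. Klrc1, which encodes the inhibitory receptor NKG2A, had 131 UMIs in 64 cells labelled WT and 38 in 21 cells labelled KO, or 166 and 56.9 CPM, a ratio of 0.343 (0.233 to 0.496). No microglia-marked barcode held a Klrc1 UMI in either library. With CD8 T cells thinned to 1000 UMIs the expected shares with a UMI were 15.8% and 5.85%, against 58.7% and 19.1% unthinned. Its activating relative Klrc2 had 36 and 15 UMIs. Klra7, a Ly49 receptor, had 47 UMIs in 9 cells and 6 in 1 cell. Klrd1, the partner chain of Klrc1, had 210 and 141 CPM and Klrk1, which encodes NKG2D, 166 and 159 CPM, within 1.5-fold. In all 3 of 9 tested genes were lower and 0 higher, with a median of -0.20. Klrc1 (-1.01) and Klra7 (-1.72) were lower without the mixed barcodes too, and Klrc2 fell short of 1.5-fold (-0.48), with a median of -0.19. Reads may be split between closely similar Klr genes, such as those of the Ly49 family or Klrc1 and Klrc2.

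Some cytokine and receptor genes were lower in the library labelled KO. The inflammatory cytokine Tnf had 55 and 24 UMIs and the chemokine Ccl3 134 and 60, the 2 of 9 tested cytokine genes that were lower, with 0 higher and a median of -0.28. Both were again lower without the mixed barcodes, at -0.66 and -0.60, while Xcl1 and the death ligand Tnfsf10 (0.73) were higher, and the median was 0.14. Ifng, the signature cytokine of these cells, had 59 and 48 UMIs. Of 21 common cytokine receptor and signalling genes 5 were lower and 0 higher, among them Il18r1 (155 and 62 UMIs) and Il2rb, a chain of the interleukin 2 and 15 receptors (147 and 75). Without the mixed barcodes the balance turned, with 4 higher and 2 lower of 21. Il18r1 was still at -0.90 and Il2rb fell short of 1.5-fold at -0.45. Over all genes 15.6% were higher and 3.85% lower in all members, and 7.3% and 4.29% without the mixed barcodes. The chains of the type I interferon receptor, Ifnar1 (34 and 38 UMIs) and Ifnar2 (114 and 80), stayed within 1.5-fold.

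The lists that follow moved less in their medians than the naive and interferon lists, but immediate-early genes were more often lower than genes at large. MHC class I presentation had 0 of 19 genes past 1.5-fold both with and without the mixed barcodes, with medians of -0.06 and 0.15, and the light chain B2m had 1836 and 1845 CPM. Of 17 factors of CD8 T cell fate, Zeb2, which drives terminal effector cells, was higher (97 and 163 UMIs, at 0.94) and Lef1 lower. Zeb2 fell short of 1.5-fold without the mixed barcodes (0.56), where the Ikaros family factor Ikzf3 was higher (0.68) and Lef1 again lower. Microglia express Zeb2 too, and microglial RNA at the level of the microglial markers would give 93.0% and 54.6% of its CPM in CD8 T cells. Of 14 chemokine and migration receptors, Cxcr4 was higher (30 and 42 UMIs, and short of 1.5-fold at 0.46 and 0.40 under TMM and DESeq2 factors) and Ccr7 and S1pr1 lower, and 1 was higher and 2 lower without the mixed barcodes as well. Of 25 immediate-early and heat-shock genes, which respond to tissue dissociation, 6 were lower, such as Hspa1b (132 and 44 UMIs) and Ier2 (107 and 45), and 7 were lower without the mixed barcodes. Over all genes 3.85% and 4.29% were lower, and the medians of this list were -0.14 and -0.31. Hsp90aa1 was the 1 higher gene, at 1.34, and at 0.18 without the mixed barcodes. Their part in other differences was not tested. Cell cycle genes had 0 of 9 past 1.5-fold, or 1 of 8 (Top2a, a topoisomerase of dividing cells, at 0.65) without the mixed barcodes, and Mki67, a marker of dividing cells, had UMIs in 1 and 6 cells. Of 11 activation and costimulation genes 0 were higher and 1 lower, of 17 genes of the receptor complex outside the selection rule 0 and 1, and of 10 glucocorticoid-induced genes 1 and 2, Il7r among the lower ones. With the mixed barcodes left out these counts were 0 and 0, 1 and 0, the signalling regulator Ubash3a (0.69), and 0 and 1.

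**Figure D4:**
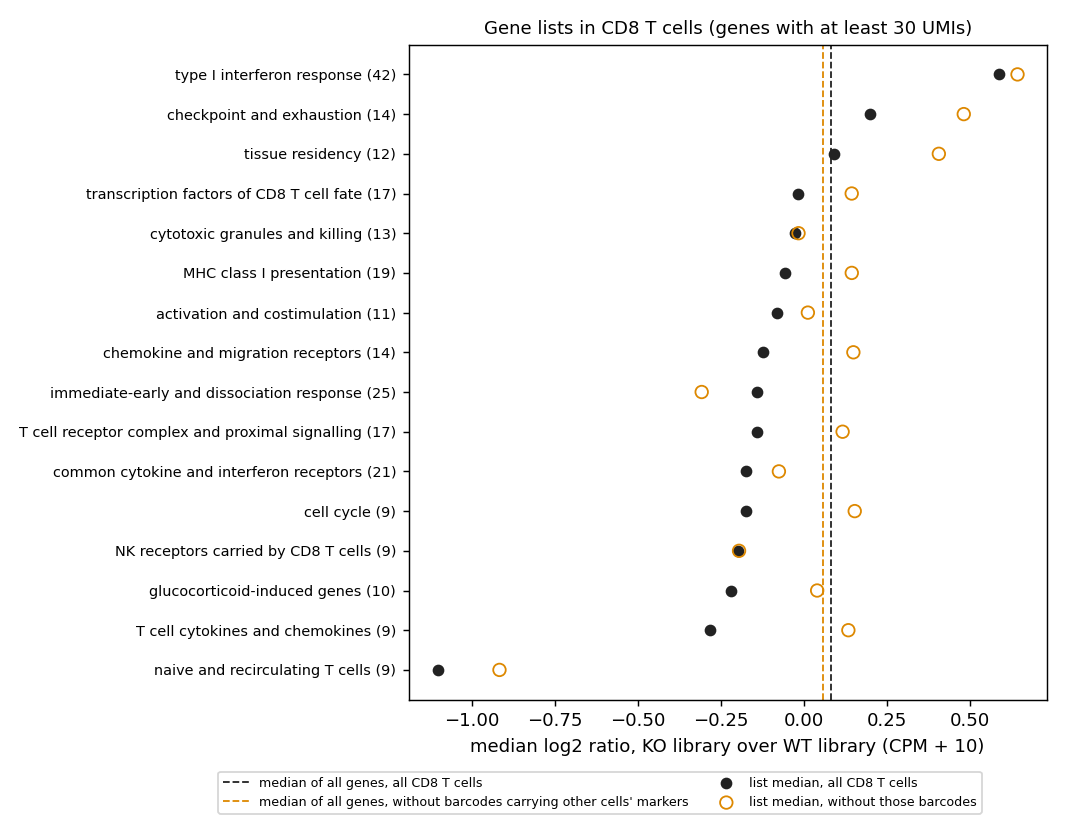
Median log2 ratio (KO over WT, CPM plus 10) of each gene list in CD8 T cells, with the number of tested genes in brackets; filled points are all members, open points leave out mixed barcodes and dashed lines are the medians of all genes (0.08 and 0.06). The interferon list lies at the right end (0.59 and 0.64) and the naive list at the left (-1.10 and -0.92), and the other lists lie between -0.31 and 0.48.

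The genes with the highest ratio lay mostly in 2 mixed barcodes. The 12 highest, Csmd1, Cfap299, Agbl4, Spag16, Dnah12, Dynlrb2, Rgs22, Nkain2, Spag17, Ak7, Kif6 and Ccser1, are mostly genes of cilia and of glia, and 98.4% of their UMIs labelled KO were in the 2 largest mixed barcodes. Astrocyte markers had 6 of 7 tested genes higher in all members with a median of 1.91, and 2 of 6 with a median of 0.30 without the mixed barcodes. Choroid plexus and ependymal markers summed to 3547 and 6387 CPM, and to 3712 and 6312 CPM without the mixed barcodes. Without these barcodes the 12 highest were Hist1h2ae, Isg15, Ifi27l2a, Zbp1, Herc6, Irf7, Sin3a, Tcrg-C2, Tmem163, Inpp1, Cmtm7 and Ago3, and 5 of these are genes of the interferon list. Tcrg-C2, a constant segment of the gamma receptor that CD8 T cells also transcribe, had 60.7 and 118 CPM.

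The 12 lowest genes were Pde2a, Klra7, Cmah, Rap1gap2, Klf2, Sidt1, Klrc1, Acp5, Hspa1b, Satb1, Hbp1 and Gab3. Pde2a, which breaks down cyclic nucleotides, had 67 UMIs in 27 cells labelled WT and 10 in 8 cells labelled KO. Cmah, which makes the sialic acid Neu5Gc, had 62 UMIs in 28 cells and 10 in 5 cells. Rap1gap2, which switches off the small GTPase Rap1, had 66 in 22 cells and 11 in 6 cells. Acp5, an acid phosphatase, had 107 in 55 cells and 33 in 24 cells. Without the mixed barcodes Pde2a, Klra7, Cmah, Rap1gap2, Klf2 and Sidt1 were again among the 12 lowest, joined by Pik3ip1, Heatr5a, Ralgapb, S1pr1, Wasl and Stip1. Dendritic cell markers had 350 and 68.8 CPM in all members and 50.7 and 41.3 without the mixed barcodes.

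Against T cells without CD8 UMIs, CD8 T cells held less RNA of helper and regulatory genes, with Cd4 and Cd40lg close to absent, and more of Ccl5, Runx3 and Klrd1. The 4 sums of counts, 1 per library and kind of T cell, were tested with edgeR's quasi-likelihood test with the library as a block and Benjamini-Hochberg adjustment over all 6561 genes. Its p-values rest on how far the difference between the 2 kinds of T cell varied between the 2 libraries. These libraries also differ in genotype, so no replicate of either genotype stands behind the p-values, and the spread is shared over genes. At an adjusted p under 0.05, 41 genes were higher in CD8 T cells (0.625%) and 71 lower (1.08%), with Cd8a and Cd8b1, which the rule used, among the higher ones. Mixed barcodes of both kinds, 9 and 20 CD8 T cells and 2 and 14 other T cells, were left out together in this comparison. Without them 79 of 5359 were higher (1.47%) and 135 lower (2.52%), and 86 calls were shared. On all members DESeq2 made 14 calls, 13 of them shared with the 112 of edgeR, edgeR without the library block 10, and edgeR on cells thinned to 1000 UMIs 0 of 1758, with 140 genes at an unadjusted p under 0.05.

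Cd4, the helper co-receptor, had 0 and 1.5 CPM in CD8 T cells labelled WT and KO against 188 and 136 CPM in the other T cells (log2 fold change -7.40 ± 0.57 SE, edgeR adjusted p = 1.31e-06). Cd40lg, with which helper cells license other cells, had 1.26 and 5.98 CPM against 293 and 257 (-6.16 ± 0.40, edgeR adjusted p = 2.0e-07). The costimulatory receptor Tnfrsf4 (-5.16), the interleukin 2 receptor chain Il2ra (-3.88), the helper factors Gata3 (-2.54) and Maf (-1.62), and Icos (-1.48) were lower too. In all 6 of 9 tested helper and regulatory genes were lower and 0 higher, and 8 of 8 without the mixed barcodes. Cd200, the ligand of the targeted receptor, was also lower in CD8 T cells (12.6 and 12.0 CPM against 94.2 and 53.5, edgeR adjusted p = 0.00545). Cd200r1 did not pass (-1.01 ± 0.38, edgeR adjusted p = 0.313).

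Ccl5 had 6856 and 5368 CPM in CD8 T cells against 1661 and 2672 in other T cells (1.58 ± 0.30, edgeR adjusted p = 0.00851). Runx3, the factor that fixes the CD8 lineage, had 219 and 229 CPM against 112 and 128 (0.96 ± 0.23, edgeR adjusted p = 0.0374). Xcl1 (1.08), Klrd1 (1.27), Cd160, a receptor of cytotoxic cells (1.80), and the gamma-chain segments Tcrg-C2 (2.40) and Trgv2 (2.74) were higher as well. Of genes outside the lists, Unc5cl (3.15), Casc4 (2.97) and Epha3 (2.32) led among those that also passed without the mixed barcodes. Syne1 went from 2.44 to -0.07 when they were left out, and Npas3, Dmd, Nnat, Arhgap6 and Cacnb2 were no longer tested.

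None of 13 cytotoxic genes passed in all members, at a median of 0.45, whereas 7 of 13 were higher without the mixed barcodes, at a median of 0.94: Gzmb, Gzmk, Prf1, Nkg7, Ctsw, Cst7 and Ctsc. Nkg7 had 1211 and 965 CPM in CD8 T cells against 401 and 789 in other T cells (1.11 ± 0.17 without mixed barcodes, edgeR adjusted p = 2.43e-08). Eomes, a factor of effector and memory CD8 T cells, and the natural killer receptors Klrk1 and Klrc1 passed in that fit too. Of 42 interferon genes 0 passed in all members, around a median of 0.05, and Ifi27l2a was lower in CD8 T cells without the mixed barcodes (-0.66 ± 0.17, edgeR adjusted p = 0.00392).

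**Figure D5:**
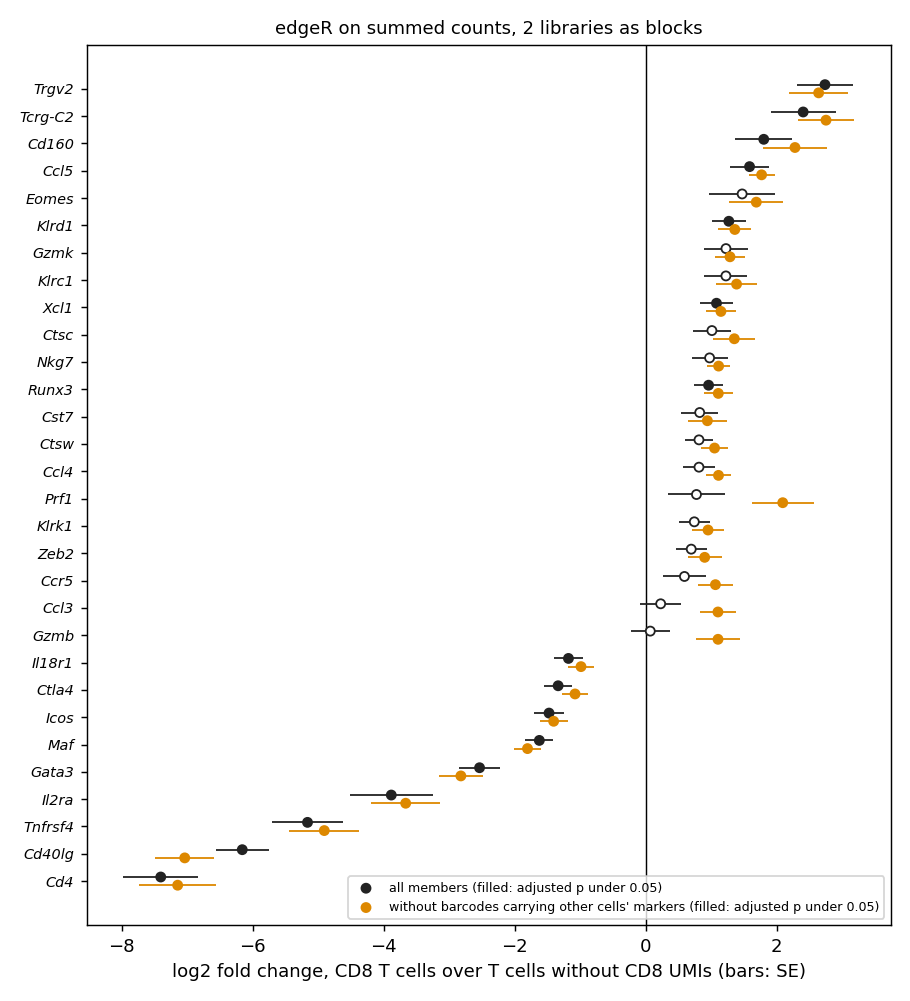
Log2 fold change of CD8 T cells over T cells without CD8 UMIs for chosen list members (edgeR on summed counts, bars are SE); black points are all members, orange points leave out mixed barcodes of both kinds of T cell, and filled points have an adjusted p under 0.05. Cd4 (-7.40) and Cd40lg (-6.16) lie at the left end, and Gzmb moves from 0.07 to 1.10 and Prf1 from 0.77 to 2.09 when mixed barcodes are left out.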

How the data were processed

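The files deposited by the authors are matrices of raw UMI counts; per the file headers they were written by Cell Ranger 7.0.1. STAR, Seurat 3.1.1 and GRCm38/mm10 are named in the submitters' processing notes; the annotation release and parameters are not given in the sources used here. Each matrix lists 32285 genes, and 0 columns were left unused.

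The selection of CD8 T cells, the gene lists and the rule for named genes were chosen with earlier results of these data known, and the lists follow an earlier treatment of the same files. Named genes are the 12 highest and 12 lowest with at least 50 UMIs over both libraries, and the 12 largest edgeR calls in each direction that had the same sign in each library; mitochondrial, ribosomal protein, haemoglobin, sex-linked, receptor variable-segment and predicted genes, rule genes and markers of other cell types were left out of this ranking. Any list member may be named; some genes are not reported here and were left out of the lists, their counts and the figures. Heat-shock, immediate-early and other list genes outside that ranking are described as members of their list.

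Counts were summed per library. Levels are CPM of the summed counts. Poisson intervals are given for CPM, conditional exact intervals for ratios and Clopper-Pearson intervals for shares, all 95%. Reads of overlapping, antisense and near-identical genes cannot be told apart here. Gene positions are from GENCODE vM21 (GRCm38), promoters from RefSeq.

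The comparison with other T cells used edgeR 4.0.16 (filterByExpr, TMM, quasi-likelihood, library block), with DESeq2 1.42.0 as an alternative. Tested on simulated counts for this comparison over 6561 genes, it called 34% of 100 genes changed 2-fold, 89% of 100 changed 4-fold and 0.126% of 6361 unchanged ones. Doublets were called with Scrublet in scanpy 1.11.5, which marked 1.23% and 4.09% of barcodes against an expected 14.6% and 15.3%, and 1 and 1 CD8 T cells; they were kept, so doublets remain. Leaving out mixed barcodes was chosen after the data were seen. Thinning draws 1000 UMIs per cell, and no T cell was shallower. Python 3.11.15, numpy 2.4.6, scipy 1.17.1 and R 4.3.3 were used.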

Additional observations from a re-analysis of the deposited data

Results flagged for a closer look

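In 2 genes, among list members and named genes with at least 30 UMIs in each kind of T cell, CD8 T cells and the other T cells went opposite ways between the libraries with intervals that leave out 1. Ccl5 had a KO over WT ratio of CPM of 0.783 (0.750 to 0.817) in CD8 T cells and of 1.61 (1.44 to 1.80) in T cells without CD8 UMIs, and 0.915 (0.874 to 0.958) in CD8 T cells without the mixed barcodes. Nr4a3, a nuclear receptor induced by receptor signalling, had a ratio of 1.74 (1.07 to 2.86) in CD8 T cells and of 0.444 (0.250 to 0.770) in the others. The histone gene Hist1h2ae, below that minimum with 15 and 6 UMIs in the other T cells, had ratios of 3.72 (2.00 to 7.35) and 0.307 (0.0975 to 0.836), and 2 barcodes held 70.5% of its UMIs in CD8 T cells labelled KO. With 1 library per genotype the difference between the 2 kinds of T cell was not tested.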

How the results depend on the processing

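With 1 library per genotype the comparison between libraries rests on counts past 1.5-fold, which follow the settings. Genes higher in the library labelled KO, 999 as reported, numbered 487 with 50 CPM added, 2690 with no filter beyond 1 UMI, 194 with a minimum of 100 UMIs, 123 with cells thinned to 1000 UMIs, 376 without mixed barcodes, 500 at 2-fold and 1869 at a difference of 25%. Genes lower, 246 as reported, numbered 402 and 47 with 1 and 50 CPM added, 621 with no filter, 66 with 100 UMIs, 528 with TMM and 671 with DESeq2 factors, 526 with totals without mitochondrial and ribosomal genes, 80 thinned, 37 at 2-fold and 881 at 25%. The naive median, -1.10 as reported, was -1.27 with TMM and -1.33 with DESeq2 factors, -1.26 with totals without mitochondrial and ribosomal genes and -1.23 with 2 CD8 UMIs. The residency median was -0.14 with DESeq2 factors and 0.41 without mixed barcodes. With no limits on microglial and endothelial shares the log2 ratios of Ccl3, Il10rb and Klf9 turned to 0.40, 0.0130 and -0.26. The causes were not tested beyond the construction of each setting.

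Against other T cells, genes higher, 39 as reported when genes of the selection rule are set aside, numbered 331 with no filter, 72 with a 5% mitochondrial limit, 72 with 5 T cell receptor UMIs, 12 without doublet calls, 4 with DESeq2, 3 with no share limits and 76 without mixed barcodes; genes lower, 71 as reported, numbered 142 with no filter, 112 with the 5% limit, 30 without doublet calls, 10 with DESeq2, 7 with no share limits and 135 without mixed barcodes. Thinning to 1000 UMIs left 1758 genes and 0 and 0 edgeR calls, with 140 genes at an unadjusted p under 0.05. DESeq2, on all members, made 14 calls. The fold change of Syne1 turned to -0.0729 without mixed barcodes. With no replicate block, that is, without pairing the 2 kinds of T cell by library, 2 genes were higher and 6 lower, and all 10 calls with Cd8a and Cd8b1 were among the 112. No paired analysis was possible between genotypes because each has 1 library.

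Of the remaining alternative values for shares, list medians and counts, 173 stayed within the counting interval or within 1.5 times of the reported one. Depth limits single genes: a gene with 3 or fewer UMIs over a library could not be told from absence.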

Other observations

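The T cell receptor segments of CD8 T cells gave a further difference between the libraries, chosen after its values were seen. Reads from the 3′ end seldom reach the variable segments, and near-identical segments can share reads, so these are counts of cells with any UMI. The alpha-chain segment Trav16d-dv11 (GRCm38 chromosome 14, 53047287 to 53047821, plus strand) was in 13 of 109 CD8 T cells labelled WT and 1 of 110 labelled KO, and in 2 of 45 and 0 of 95 other T cells. Any of 128 alpha segments was seen in 28 and 13 CD8 T cells. All 13 cells labelled WT held Gzmk UMIs, 11 held Trbc1, 9 held Xcl1 and 9 held Cxcr6. Of the other 96 CD8 T cells labelled WT, 54 held Gzmk, 56 Trbc1, 39 Xcl1 and 71 Cxcr6, so Cxcr6 was about as frequent in both sets. Itga1 (2 of the 13 and 43 of the 96), Klrc1 (5 and 59), Ly6c2 (6 and 73) and Klra7 (0 and 9) were in a smaller share of the 13. Il7r (11 and 65) and Pdcd1 (5 and 23) were in a larger share. The beta-chain segment Trbv13-1 was in 0 and 6 CD8 T cells.

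Of the beta constant segments, Trbc1 outnumbered Trbc2 in 32 of 109 CD8 T cells labelled WT (29.4%, 21.0 to 38.8) and in 16 of 110 labelled KO (14.5%, 8.55 to 22.5). Trbc2 was counted by the selection rule and Trbc1 was not, so these shares are a description only. The effect of the rule on them was not tested. Whether cells with the same segment share a receptor was not tested.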
